A study of Mus musculus with 12 samples.

Results

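*Mss51* was 1 of 55367 gene symbols listed for 12 RNA-seq samples of single muscle fibers, and it was selected for this description on its level in these samples and on its correlation with respiratory chain genes over them. Its differences and correlations are therefore given as values with no test. The samples formed 3 groups of 4, all isolated from the extensor digitorum longus (EDL), a fast muscle of the mouse hindlimb. Young fibers came from 3–4-month-old mice. Fluo-4 normal and Fluo-4 abnormal fibers came from 26–28-month-old male mice and were separated under a fluorescence stereomicroscope by their staining with Fluo-4, a calcium indicator dye. The strain named in the study is C57BL/6J. Aged mice came from another supplier and their strain is not stated separately, so supplier and age cannot be told apart between young and aged fibers. The labels name no transgene or treatment. The sources used here do not give the number of fibers or mice behind a sample, so replicates may share animals, p-values measure only the spread between these samples, which may be technical, and a rise in every fiber cannot be told apart from a larger rise in some fibers. Levels are in TPM, which scales reads by transcript length and by the total of each sample. Depth is unknown, so no counting interval was computed.

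*Mss51*, also known as *Zmynd17*, encodes a mitochondrial protein with a MYND-type zinc finger and is expressed mainly in skeletal muscle, with higher levels in fast glycolytic than in slow oxidative fibers. In yeast, Mss51 activates translation of the mitochondrial mRNA of cytochrome c oxidase subunit 1 and takes part in the assembly of this enzyme, which is complex IV of the respiratory chain. In mouse muscle, *Mss51* responds to myostatin and other TGF-β family ligands, which signal through activin receptors and SMAD proteins, and mice without *Mss51* have raised oxidative metabolism. The results below therefore follow the gene itself, complex IV with its assembly and translation factors, the other respiratory complexes, the myostatin pathway, the MYND family, and genes of fast and slow fibers.

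The gene (ENSMUSG00000021815) lies on the minus strand of chromosome 14 from 20532926 to 20547001 in GRCm39, and GENCODE lists 14 transcripts for it, of which 5 are protein-coding. No annotated gene overlapped it, which matters for libraries that keep no record of strand. A search with BLAST found 0 transcripts of other genes with at least 90% identity over at least 100 bases to its coding transcripts. The 250 bases before its transcription start, from the RefSeq promoter table (GRCm38.p6, chr14:20496902-20497151, minus strand), are shown because the myostatin pathway is among the gene's known inputs. The same letters occur once on chromosome 14 of GRCm39, at chr14:20546970-20547219. Capitals mark matches to AGAC, the short SMAD binding element, on either strand.
Mss51 promoter: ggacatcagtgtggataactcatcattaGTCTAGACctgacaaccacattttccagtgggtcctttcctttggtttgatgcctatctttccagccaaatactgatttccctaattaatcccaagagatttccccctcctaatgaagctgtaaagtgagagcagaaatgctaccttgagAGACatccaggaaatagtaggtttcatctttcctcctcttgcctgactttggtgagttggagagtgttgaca

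AGAC matched 3 times, beginning 222, 218 and 72 bases before the start. At least 1 match was present in 82.9% of the 32851 promoters of the table cut to the same length, with a median of 2. The first 2 matches adjoin and form GTCTAGAC, the palindromic SMAD binding element, which was searched for after this had been seen and was present in 0.167% of the promoters. The E-box CANNTG had 0 matches in this window and a match in 66.2% of promoters. The estrogen-related receptor half-site AAGGTCA (4.08% of promoters), the MEF3 element TCAGGTT (3.49%) and the half-MARE TGCTGA (16.1%) also had 0 matches, all searched on both strands. A match describes letters only, and binding was not measured.

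*Mss51* was high in all 4 Fluo-4 abnormal samples. Its level was 445, 779, 631 and 529 TPM in replicates 1 to 4 of the Fluo-4 abnormal fibers. In the Fluo-4 normal fibers it was 58.9, 87.3, 99.1 and 67.2 TPM. In the young fibers it was 121, 91.4, 64.6 and 52.4 TPM. The Fluo-4 abnormal samples did not overlap with either other group, and the lowest of them lay 4.49-fold above the highest Fluo-4 normal sample and 3.66-fold above the highest young sample. The Fluo-4 normal samples lay within the range of the young samples.

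The mean was 596 ± 144 TPM (SD, n = 4) in the Fluo-4 abnormal fibers, 78.1 ± 18.4 TPM (SD, n = 4) in the Fluo-4 normal fibers and 82.5 ± 30.7 TPM (SD, n = 4) in the young fibers. The level was thus 7.63-fold higher in Fluo-4 abnormal than in Fluo-4 normal fibers, a difference of 2.91 on the log2(TPM + 1) scale with a standard error of 0.25. Against young fibers it was 7.23-fold higher, a log2 difference of 2.88. Fluo-4 normal minus young gave -0.03, which is smaller than the spread within either group. These 2 groups are therefore neighbours in the order of levels that do not differ beyond their spread. Same-numbered samples of the aged groups differed 6.37- to 8.92-fold.

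**Figure D1:**
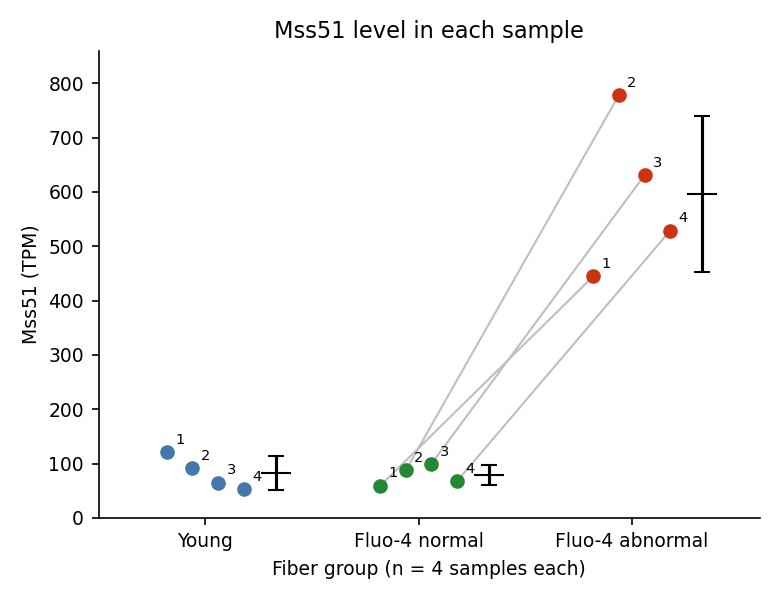
*Mss51* level in TPM (vertical axis) in each of the 12 samples by fiber group; points carry their replicate number, bars are the mean ± SD (n = 4), and grey lines join same-numbered samples of the aged groups. All 4 Fluo-4 abnormal samples (445 to 779 TPM) lie above the 8 others (52.4 to 121 TPM).

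Among 14426 tested genes, which were protein-coding or mitochondrially-encoded, *Mss51* had rank 1012 by mean level in young fibers, 1028 in Fluo-4 normal fibers and 167 in Fluo-4 abnormal fibers. Its difference between Fluo-4 abnormal and Fluo-4 normal fibers was the largest of the 14426 on the log2(TPM + 1) scale. The next was *Htra4*, at 2.82. This scale shrinks the differences of genes near 0 TPM. *Runx1t1*, below 0.5 TPM in all samples, was 13.9-fold higher by group means, more than *Mss51*, with a log2 difference of 0.35. Against young fibers *Mss51* had rank 5, after *Fam174b* (4.05), *Rasd2* (3.58), *Sln* (3.26) and *Lgals3* (2.95), genes named here after their values were seen. Group means in young fibers were 0.447 TPM for *Fam174b*, 1.23 TPM for *Rasd2*, 0.358 TPM for *Sln* and 1.13 TPM for *Lgals3*, against 82.5 TPM for *Mss51*. Unlike these genes, *Mss51* was thus well expressed in fibers without the difference.

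All samples had the marker genes of fast fibers. *Myh4*, whose product is the type IIb myosin heavy chain, made up 93.7% to 99.7% of the TPM of *Myh1*, *Myh2*, *Myh4* and *Myh7*, whereas *Myh7*, the slow myosin heavy chain, did not exceed 0.205 TPM in any sample. The *Myh4* share was 98.9% to 99.7% in Fluo-4 abnormal samples and 93.7% to 99.2% in Fluo-4 normal samples, so it moved with *Mss51* between these groups. In young samples the share was 96.9% to 98.6%. Fluo-4 normal replicate 1 had a share of 99.2% and the lowest *Mss51* level of its group, 58.9 TPM. Fluo-4 abnormal replicate 2, with a share of 98.9%, had the highest level of all, 779 TPM. With the *Myh4* share as a covariate, the log2 difference in *Mss51* between the aged groups was 3.25. The part of fiber type in this difference was not tested.

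Markers of other cells, apart from those of red blood cells, were low beside *Mss51*. Their summed level in Fluo-4 normal and Fluo-4 abnormal samples was 7.3 to 11.6 and 11.1 to 15.1 TPM for 6 satellite cell genes, 5.1 to 19.1 and 2.9 to 9.1 TPM for 6 endothelial genes, and 25.3 to 82.4 and 13.6 to 63.8 TPM for 6 fibroblast genes. It was 5.7 to 15.5 and 9.3 to 16.2 TPM for 6 immune genes, 5.2 to 23.2 and 3.7 to 12.5 TPM for 6 smooth muscle genes, and 3.7 to 16.1 and 6.7 to 14.1 TPM for 6 Schwann cell genes. Erythroid genes summed to 118.5 to 481.6 and 44.4 to 235.8 TPM, and adipocyte genes did not exceed a sum of 4.23 TPM. Within these lists, *Ptprc* did not exceed 0.26 TPM, *Adgre1* 0.011 TPM and *Pax7* 0.11 TPM, and *Adipoq* and *Plin1* were listed at 0. Other members were higher, and the immune gene *Lyz2* and the satellite cell gene *Cdh15* each reached 13.8 TPM. In young samples the immune genes summed to 1.8 to 3.0 TPM and the smooth muscle genes to 4.6 to 64.6 TPM. No list but that of immune genes had a member that passed the test between the aged groups, and there it was *Cd3e* (adjusted p = 0.0029 from limma), outside the rule for named genes. Except for the erythroid genes, the summed markers of each type were below the lowest Fluo-4 abnormal level of *Mss51*. Their part in the result was not tested.

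The question of the next comparisons was which genes of the same pathways differed between the fiber groups. Differences were tested with limma on the log2(TPM + 1) scale, fitting the 3 groups at once, with the Benjamini-Hochberg correction over the 14426 genes. This fit took no account of pairs among the aged samples. At an adjusted p under 0.05, 9.35% of genes differed between Fluo-4 abnormal and Fluo-4 normal fibers, with Fluo-4 abnormal fibers higher for 7.36% and lower for 1.99%. Against young fibers, these shares were 6.09% higher and 2.41% lower, and 1.15% differed between Fluo-4 normal and young fibers. The 2 comparisons of Fluo-4 abnormal fibers share these samples. The median log2 difference between the aged groups over all tested genes was 0.10, and it was 0.01 after rescaling by TMM-type factors, so the values below are to be read against that shift. Counts under other settings have their own background. Between the aged groups, TMM-type factors called 371 of the 14426 genes higher and 548 lower. A replicate block, with same-numbered aged samples as pairs, called 918 higher and 232 lower. With the *Myh4* share as a covariate, 712 were higher and 108 lower.

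Transcripts of most subunits of complex IV, the enzyme that yeast Mss51 serves, were at lower levels in Fluo-4 abnormal fibers. Of 18 nuclear genes for its subunits, 12 were called lower and 0 higher than in Fluo-4 normal fibers (14 at an unadjusted p under 0.05), beside 1.99% of all genes, with a median log2 difference of -0.39. With the *Myh4* share as a covariate 5 of the 18 were called lower (*Cox7a1*, *Cox6c*, *Cox7c*, *Cox6b1* and *Cox4i1*), and 7 were called without any one of Fluo-4 normal replicates 1 and 2 or Fluo-4 abnormal replicates 2, 3 and 4. Against young fibers 8 were called lower, beside 2.41% of all genes. These genes belong to the rule that selected *Mss51*, so the counts are a description. *Cox7a1*, the heart and muscle isoform of subunit 7a, was at 2514, 2288, 1904 and 1927 TPM in Fluo-4 normal fibers and at 1615, 1199, 1035 and 1209 TPM in Fluo-4 abnormal fibers. Every Fluo-4 abnormal sample lay below every Fluo-4 normal one. *Cox6c* was at 4010 ± 216 TPM (SD, n = 4) in Fluo-4 normal and 2546 ± 164 TPM in Fluo-4 abnormal fibers, and *Cox4i1* at 2227 ± 88.1 and 1627 ± 90.5 TPM. *Cox6a2* and *Cox8b*, the other muscle isoforms, differed by -0.38 and -0.39 (log2).

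Among subunits at 5 TPM or more, *Cox8a* and *Cox7a2l* had the smallest differences. *Cox8a*, the ubiquitous form of subunit 8, was at 146, 123, 106 and 119 TPM in Fluo-4 normal and 140, 122, 108 and 117 TPM in Fluo-4 abnormal fibers. The groups overlapped, with a log2 difference of -0.02. *Cox7a2l*, which acts in the formation of respiratory supercomplexes, had a difference of -0.16, and the ubiquitous *Cox6a1* and *Cox7a2* had -0.38 and -0.40. The remaining subunits at 5 TPM or more, *Cox5a*, *Cox5b*, *Cox6b1*, *Cox7b*, *Cox7c* and *Ndufa4*, had differences between -0.56 and -0.39. Of these, *Cox5b* was not called (adjusted p = 0.060 from limma) but was called with the replicate block (0.020).

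*mt-Co1*, the mitochondrially-encoded subunit 1 whose mRNA is the target of Mss51 in yeast, was at 9028, 10087, 8316 and 8716 TPM in Fluo-4 normal fibers. It was at 6619, 6176, 4824 and 4722 TPM in Fluo-4 abnormal fibers. In young fibers it lay between 6689 and 7436 TPM, above all Fluo-4 abnormal samples and below all Fluo-4 normal ones. The log2 difference between the aged groups was -0.71 for *mt-Co1*, -0.80 for *mt-Co2* and -0.84 for *mt-Nd1*, and that of *mt-Nd5* was -0.70. The value of *mt-Co1* was therefore close to the median of the 13 mitochondrially-encoded protein genes (-0.72). All 13 were called lower than in Fluo-4 normal fibers, beside 1.99% of all genes. These genes too belong to the rule that selected *Mss51*, so their counts are a description. With the *Myh4* share as a covariate 4 of the 13 were called lower, and *mt-Co1* and *mt-Nd5* were not. Against young fibers 4 of the 13 were called lower, beside 2.41% of all genes, and the median difference was -0.42. Fluo-4 normal minus young had a median of 0.32, with 0 of the 13 called by limma (8 higher at an unadjusted p under 0.05).

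Of 28 tested genes for factors that assemble complex IV, 1 was called lower and 0 higher (2 lower and 2 higher at an unadjusted p under 0.05), near the share of all genes called lower (1.99%), with a median log2 difference of -0.10. *Coa6*, a copper-handling factor, was that gene, at 51.7 ± 5.59 TPM (SD, n = 4) in Fluo-4 normal and 41.4 ± 2.43 TPM in Fluo-4 abnormal fibers (adjusted p = 0.034 from limma), and with the replicate block its adjusted p was 0.089. The call was also lost without any one of 6 samples of the aged groups. *Surf1*, whose product acts early in the assembly of subunit 1, was at 30.8, 30.5, 27.97 and 32.9 TPM in Fluo-4 normal and 32.99, 36.2, 37.5 and 41.2 TPM in Fluo-4 abnormal fibers, with an adjusted p of 0.063. *Cox16* (log2 difference 0.16) was not called either. *Taco1*, the translational activator of subunit 1 in mammals, was at 4.91 TPM in Fluo-4 normal and 4.96 TPM in Fluo-4 abnormal fibers, and *Cox14* and *Coa3*, whose yeast counterparts work with Mss51, had log2 differences of -0.02 and -0.13. Those 3 genes were named after their values were seen. After rescaling by TMM-type factors, 2 of the 28 genes were called lower, beside 548 of all 14426 genes, and the median was -0.30.

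Of 22 tested genes for mitochondrial translation, limma called 0 (1 lower and 0 higher at an unadjusted p under 0.05), and the median log2 difference was -0.04. The smallest p-values belonged to *Mtg1*, a GTPase of the mitochondrial ribosome (-0.27), *Fastkd2*, an RNA-binding protein (-0.24), and *Rmnd1*, which supports mitochondrial protein synthesis (-0.24). Rescaling by TMM-type factors called 4 lower, beside 548 of all 14426 genes, and gave a median of -0.24, so this count depends on the scaling.

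Over the 12 samples, levels of respiratory chain genes ran opposite to *Mss51*. The 87 nuclear genes for oxidative phosphorylation had a median Pearson r of -0.81 with *Mss51* on the log2(TPM + 1) scale, and 85 of the 87 values were negative. The 6348 tested genes with a mean of at least 5 TPM in a group had a median of 0.44. By complex, the median was -0.79 for 37 genes of complex I, -0.84 for 4 of complex II, -0.86 for 10 of complex III, -0.78 for 18 of complex IV and -0.82 for 18 of ATP synthase. It was -0.76 for the 13 mitochondrially-encoded protein genes. Without the 2 samples farthest from the median of *Mss51*, both Fluo-4 abnormal, the median of the 87 genes was -0.72.

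These 12 points fall into separate clusters, since 93.6% of the variance of *Mss51* lay between the 3 groups. With the group means subtracted, the median r of the 87 nuclear genes was -0.35, and 78 of the 87 values were negative, beside a median of 0.26 over all genes at 5 TPM or more. Among the 8 young and Fluo-4 normal samples, which span 52.4 to 121 TPM of *Mss51*, the median was -0.26, with 74 negative values. For the mitochondrially-encoded genes the median was -0.07 among these 8 samples, and it was 0.0055 with the group means subtracted. The opposite course of *Mss51* and mitochondrially-encoded genes was thus one between groups. TPM values of a sample share 1 total, so levels within a sample are not free of each other. In each aged group, though not in young fibers, *Mss51* rose in the order of the TMM-type factors of the samples. These factors were 0.83 to 0.99 in Fluo-4 normal and 1.04 to 1.15 in Fluo-4 abnormal samples. Correlations with the group means subtracted were not recomputed after rescaling by these factors. The part of sample scaling in them was not tested.

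**Figure D2:**
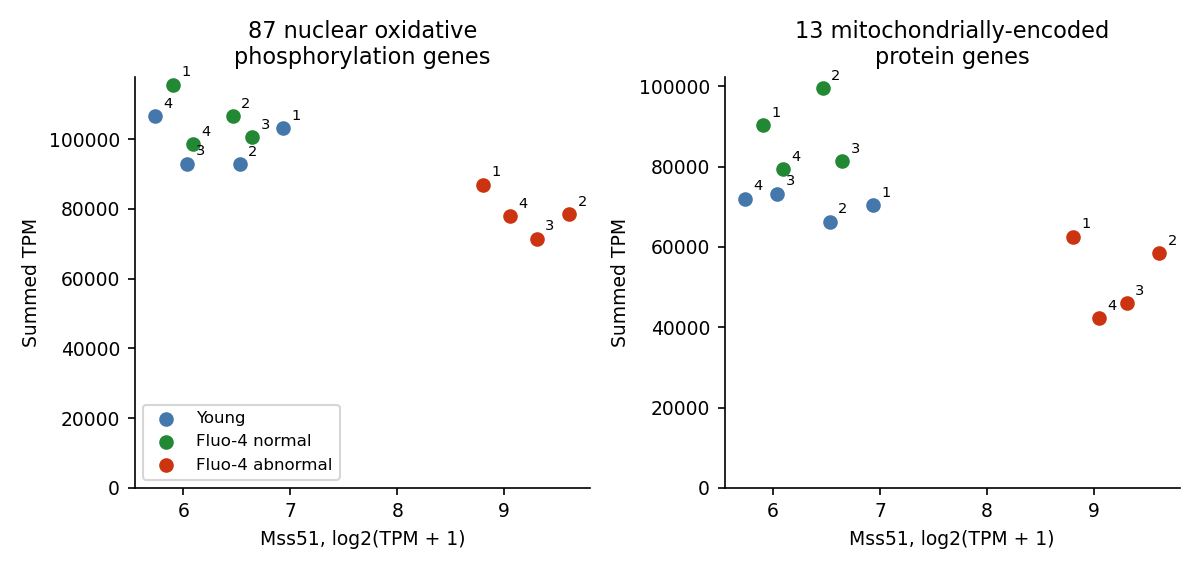
Summed TPM of the 87 nuclear oxidative phosphorylation genes (left) and the 13 mitochondrially-encoded protein genes (right), against *Mss51* on the log2(TPM + 1) scale; each point is 1 of 12 samples with its replicate number, colored by group. The Fluo-4 abnormal samples stand apart at high *Mss51* and low summed levels. Among the 8 other samples the median r was -0.07 for the mitochondrially-encoded genes and -0.26 for the nuclear genes.

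**Figure D3:**
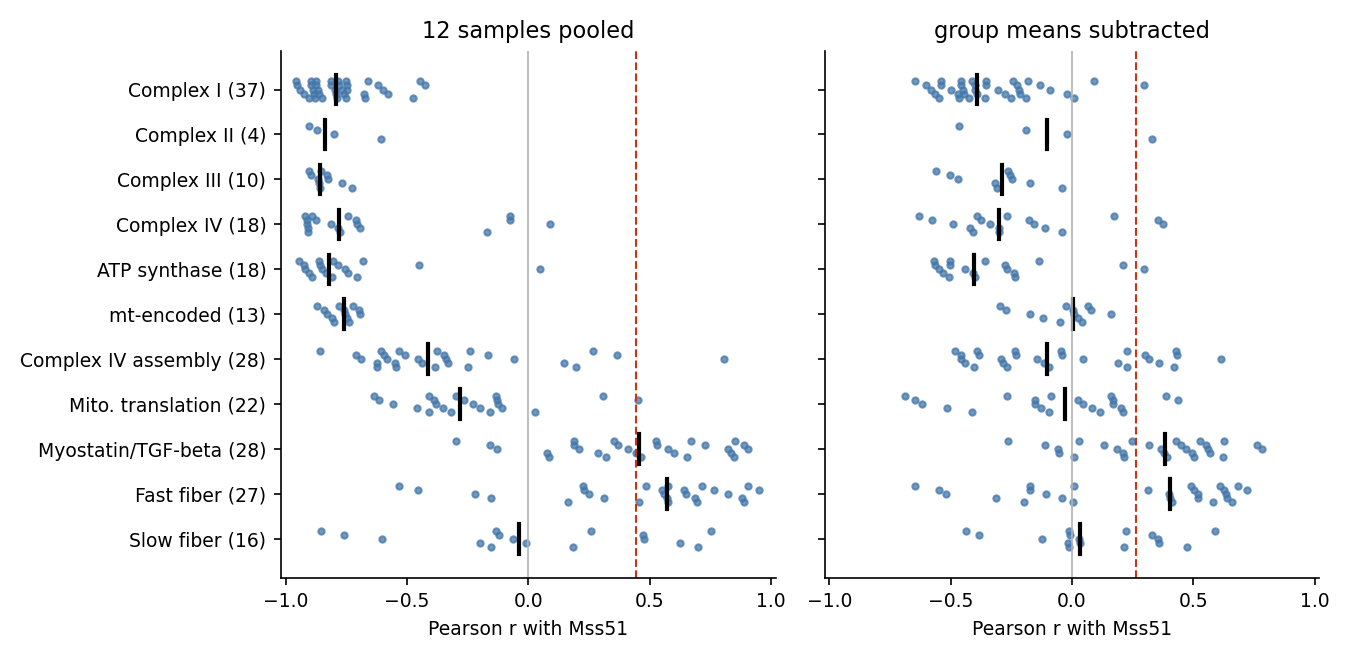
Pearson r with *Mss51* for each gene of 11 lists, over the 12 samples pooled (left) and with group means subtracted (right); black bars are list medians, the dashed red line is the median of all genes at 5 TPM or more (0.44 and 0.26), and the number of genes is in parentheses. The median of the mitochondrially-encoded genes moves from -0.76 to 0.0055.

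Summed over the 87 nuclear genes, the level was 71460 to 86958 TPM in Fluo-4 abnormal samples, 98550 to 115635 TPM in Fluo-4 normal samples and 92733 to 106581 TPM in young samples. The Fluo-4 abnormal samples did not overlap with the others. Of the 87 genes, 63 were called lower in Fluo-4 abnormal than in Fluo-4 normal fibers and 0 higher (76 lower and 0 higher at an unadjusted p under 0.05). Of all genes, 1.99% were called lower and 7.36% higher in this comparison. The rule that selected *Mss51* drew on respiratory chain genes, so the counts for the 87 genes and by complex are a description. Against young fibers 38 of the 87 were called lower, beside 2.41% of all genes. By complex, the genes called lower than in Fluo-4 normal fibers were 23 of 37 in complex I, 3 of 4 in complex II, 9 of 10 in complex III, and 16 of 18 in ATP synthase. As an example of each, *Ndufa8* of complex I was at 452 TPM in Fluo-4 normal and 298 TPM in Fluo-4 abnormal fibers, *Sdhb* of succinate dehydrogenase at 781 and 501 TPM, *Uqcrq* of complex III at 1787 and 1184 TPM, and *Atp5g1*, a c-subunit gene of ATP synthase, at 3211 and 1947 TPM. Others named by the rule had smaller differences, with log2 values of -0.38 for *Ndufa9*, -0.49 for *Ndufs8*, -0.52 for *Sdhd*, -0.38 for *Sdhc*, -0.47 for *Uqcrc2*, -0.54 for *Uqcrfs1*, -0.42 for *Atp5c1* and -0.52 for *Atp5g3*. The replicate block, with same-numbered aged samples as pairs, called 65 of the 87 lower. With the *Myh4* share as a covariate 25 were called lower, and without Fluo-4 abnormal replicate 3, 39.

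The 10 genes most like *Mss51* were taken by Pearson r over the 12 samples. They came from 6347 other genes with a mean of at least 5 TPM in any group. *Musk* and *Hsd17b7* passed this filter only through their level in Fluo-4 abnormal fibers, where *Mss51* is high too. The median r was 0.44 over all genes that passed it and 0.28 over all tested genes. *Musk*, the receptor tyrosine kinase of the neuromuscular junction, came first with r = 0.97. It was at 2.45, 3.11, 3.74 and 3.32 TPM in Fluo-4 normal and 9.17, 12.3, 9.49 and 9.92 TPM in Fluo-4 abnormal fibers. *Hsd17b7*, an enzyme of cholesterol synthesis, had r = 0.97 and levels of 4.16 ± 0.51 and 16.8 ± 5.13 TPM (SD, n = 4). *F830016B08Rik* (r = 0.95) was at 35.3 ± 9.24 and 119.8 ± 15.0 TPM.

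The other genes of the 10 had far smaller differences than *Mss51*, with log2 values between 0.24 and 0.81. They were *Eif3c*, a translation initiation factor (r = 0.97), *Skp1a*, a subunit of SCF ubiquitin ligases (0.96), *Snx32* and *Snx5*, sorting nexins (0.96 and 0.95), *Washc2*, a subunit of the WASH complex of endosomes (0.96), *Sdf4*, a calcium-binding protein of the Golgi (0.95), and *Ssr3*, which acts beside the translocon of the endoplasmic reticulum (0.95). A high r here does not mark a similar size of change, and it can come from the separation of the groups alone. With the group means subtracted, r was 0.87 for *Eif3c*, 0.80 for *Skp1a*, 0.78 for *Hsd17b7*, 0.77 for *Washc2* and 0.70 for *Musk*, but 0.23 for *Snx5*, whose Spearman rho over the 12 samples was 0.73. The median over all genes at 5 TPM or more was 0.26 with the group means subtracted. After rescaling by TMM-type factors the log2 difference of *Skp1a* was 0.04 and that of *Eif3c* 0.14, whereas those of *Musk* and *Hsd17b7* were 1.26 and 1.56.

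Of the 10 genes least like *Mss51*, 4 were nuclear genes of oxidative phosphorylation. *Gng5*, a G protein γ subunit, had the lowest value (r = -0.97), followed by *Ndufa8* (-0.96), *Mtres1*, a factor that protects mitochondrial transcription under stress (-0.96), and *Slc25a4*, the muscle form of the ADP/ATP carrier (-0.95). *Ndufc2* and *Ndufa11* of complex I, *Idh3b* of the tricarboxylic acid cycle, *Atp5g1*, *Eno3*, the muscle enolase, and *Me3*, a mitochondrial malic enzyme, followed with r between -0.95 and -0.93. *Slc25a4* was at 3416 ± 96.6 TPM (SD, n = 4) in Fluo-4 normal and 2372 ± 114 TPM in Fluo-4 abnormal fibers. *Eno3*, at 8920 ± 486 and 7760 ± 396 TPM, kept the strongest r of the 10 with the group means subtracted, -0.78, beside -0.70 for *Mtres1*. In all, 111 genes had an r above 0.9 and 38 an r below -0.9.

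**Figure D4:**
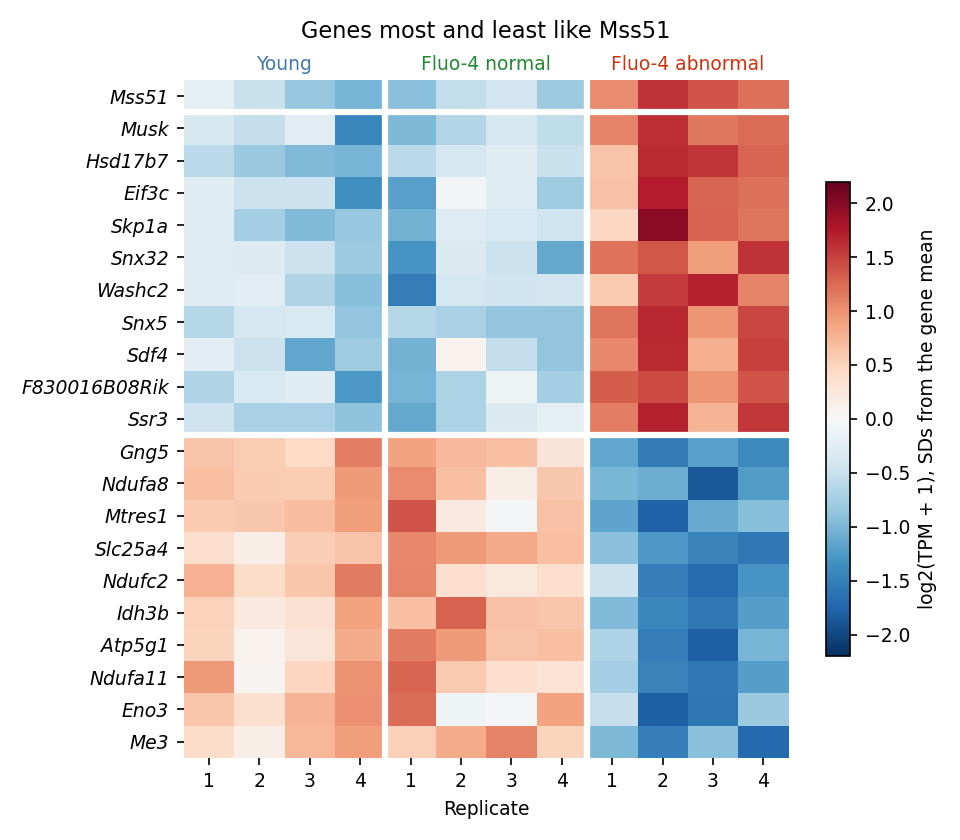
Levels of *Mss51* (top row), the 10 genes most like it and the 10 least like it in each of the 12 samples, as log2(TPM + 1) in SDs from the mean of each gene. Every gene separates the Fluo-4 abnormal samples from the 8 others, as the choice by r leads it to do, and Fluo-4 abnormal replicate 2, the highest for *Mss51*, is also the highest for *Musk* and *Hsd17b7*.

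The myostatin and TGF-β pathway was higher in Fluo-4 abnormal fibers in part of its members. Of 28 tested genes, 7 were called higher and 0 lower than in Fluo-4 normal fibers, beside 7.36% and 1.99% of all genes. Of the 28 differences 24 were positive, beside 10042 of 14426 for all tested genes, with a median of 0.31 against 0.10. After rescaling by TMM-type factors, 6 were called higher, beside 371 of all 14426 genes. Of the 28 differences 22 were then positive, and the median was 0.13 against 0.01. Without Fluo-4 abnormal replicate 2, and also with the *Myh4* share as a covariate, 4 were called. Against young fibers, 5 were called higher and 0 lower, beside 6.09% and 2.41% of all genes.

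Among the ligands, *Mstn*, which encodes myostatin, was at 48.6, 74.1, 74.5 and 64.4 TPM in Fluo-4 abnormal fibers. It was at 28.8, 39.6, 41.1 and 36.6 TPM in Fluo-4 normal and 46.4, 42.9, 48.4 and 29.4 TPM in young fibers. The Fluo-4 abnormal samples lay above all others, but the lowest of them by less than 1 TPM above the highest young sample. Its log2 difference between the aged groups was 0.82 (standard error 0.17, adjusted p = 0.011 from limma). With the group means subtracted, r between *Mstn* and *Mss51* was 0.76, beside a median of 0.26 over all genes at 5 TPM or more. Among the 8 young and Fluo-4 normal samples r was 0.69, beside a median of 0.22. *Gdf11*, a related ligand, was low in all fibers, with means of 0.204 TPM in Fluo-4 normal and 0.913 TPM in Fluo-4 abnormal fibers (adjusted p = 0.0081 from limma). With the replicate block its adjusted p was 0.051.

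Among the receptors, *Acvr2a*, an activin type II receptor that binds myostatin, was at 2.29, 4.72, 4.96 and 3.57 TPM in Fluo-4 normal and 8.16, 13.7, 12.7 and 9.96 TPM in Fluo-4 abnormal fibers. The groups did not overlap, and the log2 difference was 1.32 (standard error 0.21, adjusted p = 0.0028 from limma). Against young fibers, at 6.68 TPM on average, *Acvr2a* was not called (adjusted p = 0.072). *Acvr2b*, the other type II receptor, was at 6.14 TPM in Fluo-4 normal and 9.09 TPM in Fluo-4 abnormal fibers and was not called. *Tgfbr1* (log2 difference 0.85), *Tgfbr3* (0.87) and the signal transducer *Smad2* (0.57), named here after their values were seen, made up the other called receptors and mediators, whereas *Smad3* (0.31) and *Smad4* (0.43) were not called. *Smad2* was at 5.01 to 7.27 TPM in young fibers, overlapping the 6.06 to 7.515 TPM of Fluo-4 abnormal fibers. *Tgfbr1* and *Tgfbr3* did not exceed 4.88 and 0.957 TPM in young fibers, below all Fluo-4 abnormal samples. Of the inhibitors, *Fstl3* rose from 0.786 to 1.97 TPM (adjusted p = 0.0046 from limma), while *Fst* and *Smad7* were not called. *Ccn2*, a common readout of the pathway (0.70), was not called.

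Of 18 other tested genes with a MYND-type zinc finger, 2 were called higher and 0 lower, near the shares of all genes (7.36% and 1.99%), and all 18 differences lay between -0.05 and 0.52 on the log2 scale. Without Fluo-4 normal replicate 2 or Fluo-4 abnormal replicate 2 or 3, 1 was called. *Usp19*, a deubiquitinase, rose from 39.3 ± 5.45 to 52.3 ± 4.43 TPM (SD, n = 4, adjusted p = 0.021 from limma), and its adjusted p was 0.11 after rescaling by TMM-type factors. *Runx1t1*, a transcriptional corepressor, was below 0.5 TPM in all samples (adjusted p = 0.011 from limma). *Smyd1*, the muscle-specific methyltransferase of the family, was at 18.3 and 19.0 TPM in Fluo-4 normal and Fluo-4 abnormal fibers and at 25.1 TPM in young fibers. *Smyd2*, at 129 and 176 TPM, was not called (adjusted p = 0.11), whereas the replicate block called it higher (adjusted p = 0.026).

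Of 27 tested genes of fast fibers, 8 were called higher and 0 lower, 24 differences were positive, and the median was 0.30. Of all tested genes, 7.36% were called higher and 10042 of 14426 differences were positive, and the median at 5 TPM or more was 0.20. Against young fibers, 5 of the 27 were called higher and 0 lower, beside 6.09% and 2.41% of all genes. After rescaling by TMM-type factors, 5 were called, beside 371 of all 14426 genes called higher. Of the 27 differences 18 were then positive, with a median of 0.11. The replicate block called 12, where 918 of all 14426 genes were called higher. A filter at 5 TPM called 14, where 1419 of 6348 genes were called higher. Of the 27 genes, 26 had a mean of at least 5 TPM in a group. *Myh4* was at 6254, 8598, 9813 and 8159 TPM in Fluo-4 normal and 10770, 14714, 15574 and 10992 TPM in Fluo-4 abnormal fibers, with a log2 difference of 0.66 (adjusted p = 0.020 from limma). Rescaled, the adjusted p of *Myh4* was 0.12. *Mybpc2*, the fast myosin-binding protein C, had a log2 difference of 0.69 (adjusted p = 5.2e-04), *Tpm1*, a tropomyosin, 0.70 (0.0024), and *Casq1*, the fast-fiber calsequestrin, 0.50 (0.0017). Rescaled, *Tpm1* and *Casq1* were not called. *Mybpc2* had r = 0.95 with *Mss51* over the 12 samples. *Casq1* had r = 0.25, since young fibers, at 3665 TPM, were above the Fluo-4 abnormal fibers, at 3238 TPM. *Tbx15*, a regulator of the fast program (0.38), was not called. Of further marker genes of fast fibers, named after their values were seen, *Actn3* (0.77) was called higher. *Tnnt3* (0.13), *Tnni2* (0.11) and *Pvalb* (0.30) were not called.

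*Myh1*, the myosin heavy chain of type IIx fibers, was at 46.2, 542, 488 and 262 TPM in Fluo-4 normal and 64.5, 147, 48.5 and 44.3 TPM in Fluo-4 abnormal fibers. The groups overlapped through Fluo-4 normal replicate 1, and the adjusted p was 0.087. *Myh2*, of type IIa fibers, did not exceed 34.6 TPM in any sample.

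Of 16 genes of slow or oxidative fibers, 3 were called lower and 1 higher, beside 1.99% and 7.36% of all genes. The 1 gene called higher is near the share of all genes. *Mb*, which encodes the oxygen carrier myoglobin, was at 934, 1884, 1252 and 1128 TPM in Fluo-4 normal and 471, 337, 166 and 211 TPM in Fluo-4 abnormal fibers. *Actn2*, an α-actinin of the Z-disc, was at 319 ± 77.4 and 92.7 ± 25.3 TPM (SD, n = 4), and *Cd36*, a fatty acid transporter, at 58.2 ± 15.2 and 21.1 ± 6.12 TPM. The adjusted p-values from limma were 8.7e-04, 4.9e-04 and 0.0033. Against young fibers *Mb* and *Actn2* were called lower too. *Cd36*, at 27.2 TPM in young fibers, was not called against them (adjusted p = 0.37), and Fluo-4 normal fibers were higher than young ones in *Cd36* (adjusted p = 0.04998) and *Actn2* (0.042). With the *Myh4* share as a covariate, the adjusted p of *Cd36* between the aged groups was 0.067. The slow contractile genes *Myh7*, *Tnnt1*, *Tnni1* and *Tnnc1* did not exceed 0.580 TPM in any sample. Other contractile genes of the list went higher. *Myl2* reached 3.54 TPM in a young sample, *Tpm3* 8.775 TPM in a Fluo-4 normal sample and *Myl3* 0.636 TPM in a Fluo-4 abnormal sample. *Atp2a2*, the slow calcium pump, was the gene called higher, at 2.02 TPM in Fluo-4 normal and 4.86 TPM in Fluo-4 abnormal fibers, and it was named after its values were seen. It was not called without Fluo-4 normal replicate 1 or 2 or Fluo-4 abnormal replicate 2 or 4.

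Of 21 tested genes of fatty acid oxidation, 15 were called lower and 0 higher (19 lower and 0 higher at an unadjusted p under 0.05), beside 1.99% and 7.36% of all genes. The replicate block called 9. With the *Myh4* share as a covariate 4 were called. Against young fibers 3 of the 21 were called lower, beside 2.41% of all genes, and 4 were called higher in Fluo-4 normal than in young fibers, where 20 of 21 differences were positive (median 0.25). *Acaa2*, the mitochondrial thiolase, was at 130.1 TPM in young, 166 TPM in Fluo-4 normal and 94.4 TPM in Fluo-4 abnormal fibers. *Acadm*, the medium-chain acyl-CoA dehydrogenase, was at 179.7, 237 and 146 TPM in these groups, and *Acadl*, its long-chain counterpart, at 145, 205 and 126.5 TPM. Of these, *Acaa2* was called lower against young fibers. Of 17 tested genes of glycolysis and glycogen breakdown, 3 were called higher and 0 lower, beside 7.36% and 1.99% of all genes. All 3 act on glycogen, namely *Pygm*, the muscle glycogen phosphorylase (log2 difference 0.38), and the phosphorylase kinase subunits *Phka1* (0.50) and *Phkg1* (0.31). With the replicate block *Phkg1* was not called (adjusted p = 0.10). Against young fibers 0 of the 17 were called higher and 1 lower by limma (1 and 4 at an unadjusted p under 0.05), and these 3 genes had log2 differences between 0.02 and 0.19. After rescaling by TMM-type factors 1 gene was called higher and 1 lower, beside 371 and 548 of all 14426 genes. Without Fluo-4 normal replicate 2 or Fluo-4 abnormal replicate 2 or 3, 1 gene was called higher.

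Among 18 regulators of mitochondria and energy transfer, 4 were called lower and 1 higher, beside 1.99% and 7.36% of all genes. The 1 gene called higher is near the share of all genes. *Ckmt2*, the mitochondrial creatine kinase of muscle, was at 1074, 1421, 1077 and 1082 TPM in Fluo-4 normal and 496, 315, 183 and 283 TPM in Fluo-4 abnormal fibers (adjusted p = 4.9e-04 from limma). *Perm1*, a muscle regulator induced by PGC-1 and estrogen-related receptors, fell from 53.8 ± 9.73 to 23.9 ± 5.34 TPM (SD, n = 4, adjusted p = 9.9e-04 from limma). *Esrrg*, an estrogen-related receptor, was at 2.26 and 0.68 TPM (adjusted p = 0.0082, and 0.14 with the *Myh4* share as a covariate). *Sirt3* (-0.62) fell too, and *Tfb2m* (0.34) was the gene called higher, both named after their values were seen. The call of *Tfb2m* was lost with the replicate block and with TMM-type factors. Over the 12 samples, r with *Mss51* was -0.93 for *Ckmt2* and -0.89 for *Perm1*. With the group means subtracted it was -0.24 and 0.03. Of 25 genes of mitochondrial quality control, 2 were called lower and 0 higher, beside 1.99% and 7.36% of all genes. The 2 were *Phb*, a prohibitin (log2 difference -0.48), and *Mfn1*, a mitofusin (-0.45). The call of *Mfn1* was lost in 16 of 21 alternatives, with an adjusted p of 0.075 with the replicate block and 0.60 with the *Myh4* share as a covariate, where its difference was -0.14. *Bnip3*, a mitophagy receptor, had 0.32 and an adjusted p of 0.051, and of 0.042 with the replicate block. TMM-type factors called 5 of the 25 lower, beside 548 of all 14426 genes. The replicate block called 1 lower and 1 higher, beside 232 and 918 of all 14426 genes.

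**Figure D5:**
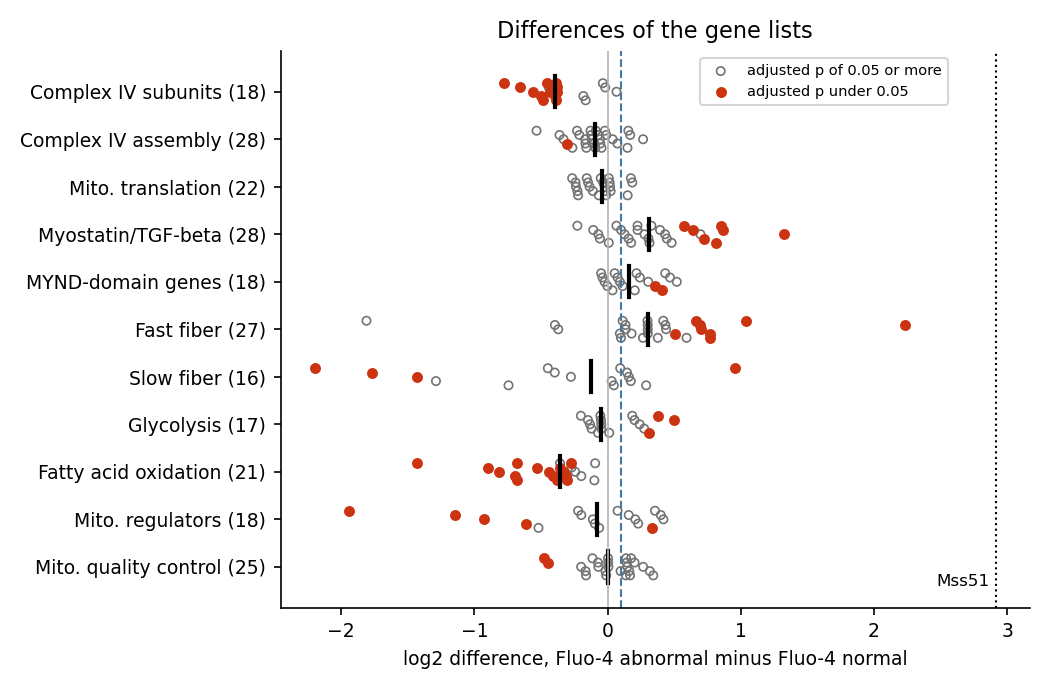
Difference between Fluo-4 abnormal and Fluo-4 normal fibers (log2 of TPM + 1, horizontal axis) for each tested gene of 11 lists; filled red points had an adjusted p under 0.05 in limma, open points did not, black bars are list medians, the dashed blue line is the median of all tested genes (0.10), and the dotted line is *Mss51* (2.91). No listed gene reached the difference of *Mss51*; after rescaling by TMM-type factors 18 of the 27 fast-fiber differences were positive, in place of 24.

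The protein-coding genes beside *Mss51* on chromosome 14 differed in their course. *Anxa7*, an annexin 2724 bases away, was at 21.8, 25.3, 20.2 and 24.1 TPM in Fluo-4 normal and 37.3, 47.6, 40.3 and 39.7 TPM in Fluo-4 abnormal fibers. The groups did not overlap, and the log2 difference was 0.82 (standard error 0.15, adjusted p = 0.0052 from limma, and 0.053 with the *Myh4* share as a covariate). *Ppp3cb*, a catalytic subunit of calcineurin 1404 bases away on the other side, was at 22.6 ± 3.47 and 27.7 ± 5.48 TPM (SD, n = 4) and was not called (adjusted p = 0.27). *Cfap70* and *Usp54*, the next genes on either side, stayed below 1 TPM in all groups on average and were not called. Of the 4 neighbours, then, only *Anxa7* passed the test, with a difference smaller than that of *Mss51*.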

How the data were processed

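The authors aligned reads of SMART-Seq v4 libraries, made from 10 ng of RNA without strand information, against GRCm39 using DRAGEN. The deposited values are TPM by gene symbol. The annotation release is not given in the sources used here. Lines with the same symbol were summed. Protein-coding and mitochondrially-encoded genes with a mean of at least 0.02 TPM in a group were tested with limma 3.58.1 (R 4.3.3, trended variance) on log2(TPM + 1). Copies were searched with BLAST 2.17.0. Python 3.11.15 (pandas 2.3.3, matplotlib 3.10.9) was used for tables and plots. The fit was tested on simulated data.

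*Mss51*, the gene lists and the tests were chosen with earlier results of these data known. Named genes were the 10 most and 10 least like *Mss51*, up to 3 per list by p, the complex IV subunits, the neighbours and *mt-Co1*, *Mstn*, *Smyd1* and myosin heavy chains, and others where stated. As alternatives, a pseudocount of 0.1, no filter or 5 TPM, TMM-type factors (trimming 30% of ratios and 5% of levels), totals taken without the mitochondrially-encoded genes, a replicate block, 2 groups only, the *Myh4* share, other correlations, and leaving out each sample were tried. The replicate numbers come from the labels. In 5078 genes, deviations of same-numbered aged samples from their group means correlated at 0.32 to 0.48, against -0.39 to 0.25 for other numbers. Same-numbered samples were therefore treated as pairs in the replicate block, but the main fit had no block. Results for some genes are not reported here.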

Additional observations from a re-analysis of the deposited data

Results flagged for a closer look

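*Mss51* had no sample that stood apart within its group. Over 90 named genes, 16 of 270 groups of 4 samples had a sample far from the other 3, where chance gives about 1 in 20. Of these samples, 6 were Fluo-4 normal replicate 2, with the high values of *mt-Nd5* (2220 TPM), *Sdhb* (868 TPM), *Uqcrfs1* (841 TPM), *Ckmt2* (1421 TPM), *Idh3b* (611 TPM) and *Myh2* (34.6 TPM). Fluo-4 normal replicate 1 was high for *Cox6b1* (2043 TPM) and *Ndufc2* (623 TPM) and low for *Washc2* (8.33 TPM), and Fluo-4 normal replicate 3 was low for *Atp5g3* (1489 TPM). In young fibers, replicate 3 was low for *Sdhc* (171 TPM) and high for *Myh2* (17.2 TPM), replicate 4 was high for *Fastkd2* (35.8 TPM) and low for *Esrrg* (1.03 TPM), and replicate 2 was low for *Cd36* (19.6 TPM). Fluo-4 abnormal replicate 2 was high for *Myh2* (10.6 TPM).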

How the results depend on the processing

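The log2 difference of *Mss51* between Fluo-4 abnormal and Fluo-4 normal fibers was 2.71 to 3.25 over the alternatives, and 2.78 to 3.04 when each sample was left out. Against young fibers it was 2.69 to 3.09 when each sample was left out, and Fluo-4 normal minus young was -0.22 to 0.18.

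Between the aged groups 1349 genes were called by limma, 567 with only these groups in the fit, 820 with the *Myh4* share, and 1150 with the replicate block. The replicate block together with the *Myh4* share, chosen after seeing the data, called 0 genes (2460 at an unadjusted p under 0.05) and 0 of the 87 nuclear oxidative phosphorylation genes lower (61 at an unadjusted p under 0.05). Of these 87, 28 were called lower with only the aged groups in the fit and 25 with the *Myh4* share, against 63. Leaving out each sample gave 606 to 1420 genes between the aged groups, lowest without Fluo-4 abnormal replicate 2, and 39 to 67 of the 87, lowest without Fluo-4 abnormal replicate 3. It gave 576 to 1677 genes between Fluo-4 abnormal and young fibers, lowest without young replicate 4 (706 without young replicate 1, 808 without 3, and 700 and 744 without Fluo-4 abnormal replicates 2 and 4), and 45 to 183 genes between Fluo-4 normal and young fibers, lowest without young replicate 2 (67 and 48 without young replicates 1 and 3, and 71, 86 and 51 without Fluo-4 normal replicates 2, 3 and 4), against 166 with all samples, 266 at a filter of 5 TPM and 69 with only the 2 groups. TMM-type factors changed the split of calls between the aged groups from 1062 higher and 287 lower to 371 and 548. The causes were not tested.

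The median r with *Mss51* over the 87 genes was -0.85 to -0.78 when each sample was left out, -0.35 with group means subtracted and -0.26 in the 8 young and Fluo-4 normal samples. For the mitochondrially-encoded genes it was -0.81 to -0.71 when each sample was left out, -0.82 with TMM-type factors, -0.85 in the 8 aged samples, 0.0055 with group means subtracted and -0.071 in the 8 young and Fluo-4 normal samples. Unknown depth limits what can be said of genes near 0 TPM, such as *Gdf11* and *Runx1t1*.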
